A study of Mus musculus with 8 samples.

Results

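The genes described here encode the proteins of the synaptonemal complex, and 9 of the 55357 genes in the deposited table were chosen by name: *Sycp1*, *Sycp2*, *Sycp3*, *Syce1*, *Syce2*, *Syce3*, *Tex12*, *Sycp2l* and *Syce1l*. They were measured by RNA-seq in germ cells from the testes of 15-day C57BL/6 males, with 4 control and 4 cKO samples of 1 mouse each. Control mice were *Mgat2*[F/F], so that both *Mgat2* alleles were floxed and no Cre was present. The cKO mice were *Mgat2*[F/F]:*Stra8*-iCre, with the same floxed alleles and a Cre transgene that the *Stra8* promoter drives in spermatogonia. *Mgat2* encodes the Golgi GlcNAc-transferase that is needed to make complex N-glycans, and cells of the testis that do not express the transgene keep the gene. The comparison asks which transcripts differ between the germ cells of control and cKO mice. All 9 genes passed the expression filter of at least 1 TPM in at least 1 sample, as did 20187 genes in all. TPM is a transcript level scaled for transcript length and library depth, so it can be compared between genes as far as the estimated lengths hold.

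The synaptonemal complex is the protein zipper that joins homologous chromosomes along their length in meiotic prophase. SYCP2 and SYCP3 form the lateral elements on the chromosome axes, SYCP1 forms the transverse filaments that bridge the axes, and SYCE1, SYCE2, SYCE3 and TEX12 form the central element where the filaments meet. The complex is assembled in zygotene and holds the chromosomes together through pachytene, when crossovers mature. *Sycp2l* and *Syce1l* are paralogs of *Sycp2* and *Syce1*, and *Sycp2l* is known as a gene of oocytes.

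Transcripts of the complex were abundant in both genotypes, and no member was called between them. The 3 genes of the axis and the transverse filament, *Sycp1*, *Sycp2* and *Sycp3*, followed each other from mouse to mouse, and so did *Syce1*, *Syce1l* and *Syce3*. Among the 6 samples not numbered 1, *Syce1* also followed the first 3 genes. In the samples numbered 1, *Sycp1*, *Sycp2* and *Sycp3* were the lowest of their genotype, while *Syce1* and *Syce1l* were the highest. For *Syce1* the margin was wide in control 1 (140.7 against 68.2 to 93.4 TPM) and small in cKO 1 (72.8 against 63.8 to 69.5 TPM). The stretches of genome just before the starts of *Sycp1*, *Sycp2*, *Sycp3* and *Syce1* are printed because these genes carry that contrast. The sequences are from RefSeq promoter windows (table of GRCm38.p6), were found by an exact match in GRCm39, and end at the annotated start of the gene. Capitals mark matches to an E-box (CACGTG), a MYB core (AACGG) or an E2F motif (TTCCCGC) on either strand. Their positions are chr3:102843456-102843666 (minus strand) for *Sycp1*, chr2:178049479-178049701 (minus) for *Sycp2*, chr10:88295199-88295430 (plus) for *Sycp3* and chr7:140367821-140368017 (minus) for *Syce1*.
Sycp1: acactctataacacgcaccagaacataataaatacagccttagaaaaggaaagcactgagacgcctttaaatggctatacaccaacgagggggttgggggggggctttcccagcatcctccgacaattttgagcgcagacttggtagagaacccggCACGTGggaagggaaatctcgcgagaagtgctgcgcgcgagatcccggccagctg
Sycp2: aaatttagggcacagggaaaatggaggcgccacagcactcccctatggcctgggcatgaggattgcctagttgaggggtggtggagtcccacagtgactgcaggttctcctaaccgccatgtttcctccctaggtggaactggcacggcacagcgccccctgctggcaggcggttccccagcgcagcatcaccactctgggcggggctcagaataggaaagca
Sycp3: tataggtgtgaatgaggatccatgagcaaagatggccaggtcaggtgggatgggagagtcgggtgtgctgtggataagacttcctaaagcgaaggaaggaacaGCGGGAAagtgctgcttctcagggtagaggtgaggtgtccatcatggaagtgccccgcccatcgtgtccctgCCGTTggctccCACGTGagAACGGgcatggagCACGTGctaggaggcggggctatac
Syce1: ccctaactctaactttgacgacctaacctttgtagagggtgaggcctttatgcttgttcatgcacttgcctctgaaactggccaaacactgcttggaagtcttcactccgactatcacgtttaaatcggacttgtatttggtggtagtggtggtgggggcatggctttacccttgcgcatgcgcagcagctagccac

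*Sycp3* held 2 E-boxes, 2 MYB cores and 1 E2F match, and *Sycp1* held 1 E-box, its MYB core lying past the end of the printed stretch. *Sycp2* and *Syce1* held none of these letters. In windows of 250 bases before each RefSeq start, 5 of the 9 members had an E-box (*Sycp1*, *Sycp3*, *Syce2*, *Tex12* and *Syce1l*), against 6.02% of 32851 windows of the same length. The MYB core was found for 3 members (*Sycp1*, *Sycp3* and *Syce3*, against 14.5% of windows) and the E2F motif for 3 (*Sycp3*, *Syce2* and *Tex12*, against 3.82%). The STRA8 motif CNCCTCAG was found for *Syce2* alone among the members, against 6.42% of windows. *Syce2* and *Syce3* have 2 RefSeq windows each, so they had more sequence to match than the others, while the percentages are of single windows. The matches of *Syce2* and of *Syce3* lie inside the annotated gene and not before its start. In *Syce2* the STRA8 and E2F matches overlap. A match of letters is a description of the window and not a bound site.

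The 8 libraries held 12584726 to 15907505 expected counts in controls and 14069373 to 15572196 in cKO samples. *Mgat2* was at 45.6, 21.7, 42.8 and 41.4 TPM in controls 1 to 4 and at 23.0, 13.4, 24.9 and 10.9 TPM in cKO 1 to 4, so control 2 lay inside the cKO range. The *Mgat2* difference was not called (log2 fold change of cKO over control -1.05 ± 0.36 SE, adjusted p = 0.47, edgeR quasi-likelihood test, Benjamini-Hochberg method across the 20187 genes), but it was called by DESeq2 (-1.06, adjusted p = 0.025). Markers of germ cells were present, with 10 spermatogonial markers summing to 906.5 to 1088 TPM in controls and 1044 to 1262 TPM in cKO samples. Markers of Sertoli cells, the somatic cells of the tubule, summed to 5796 to 7214 TPM in controls and 6009 to 7239 TPM in cKO samples, so the fraction was not free of somatic RNA. *Clu* alone averaged 4162 TPM in controls and 4348 TPM in cKO samples within the Sertoli cell sum. *Uchl1* averaged 548.6 and 641.4 TPM within the spermatogonial sum, so both sums rested largely on 1 gene. Leydig cell markers summed to at most 89.65 TPM. The 8 spermatid genes summed to 24.1 to 71.86 TPM in controls and 11.68 to 27.73 TPM in cKO samples, mostly from *Dbil5* and *Acr*, with *Prm1* and *Catsper1* at 0 in all 8 samples. The samples numbered 1 stood apart from the other 3 of their genotype. Their 10 pachytene markers (*Piwil1*, *Ccna1*, *Mybl1*, *Hspa2*, *Pou5f2*, *Ldhc*, *Pgk2*, *Tbpl1*, *Spag6l* and *Adam2*) summed to 2406 TPM in control 1, against 661.2 to 1069 in the other controls, and to 831.0 TPM in cKO 1, against 306.2 to 362.6 in the other cKO samples. *Ldhc*, with means of 539.9 TPM in controls and 139.4 TPM in cKO samples, and *Hspa2*, with 323.7 and 164.4 TPM, made up much of these sums. In the 2 samples numbered 1 Sertoli cell markers were the lowest of their genotype. In samples of mixed cells, fewer cells of a type and less RNA per cell cannot be told apart.

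**Figure D1:**
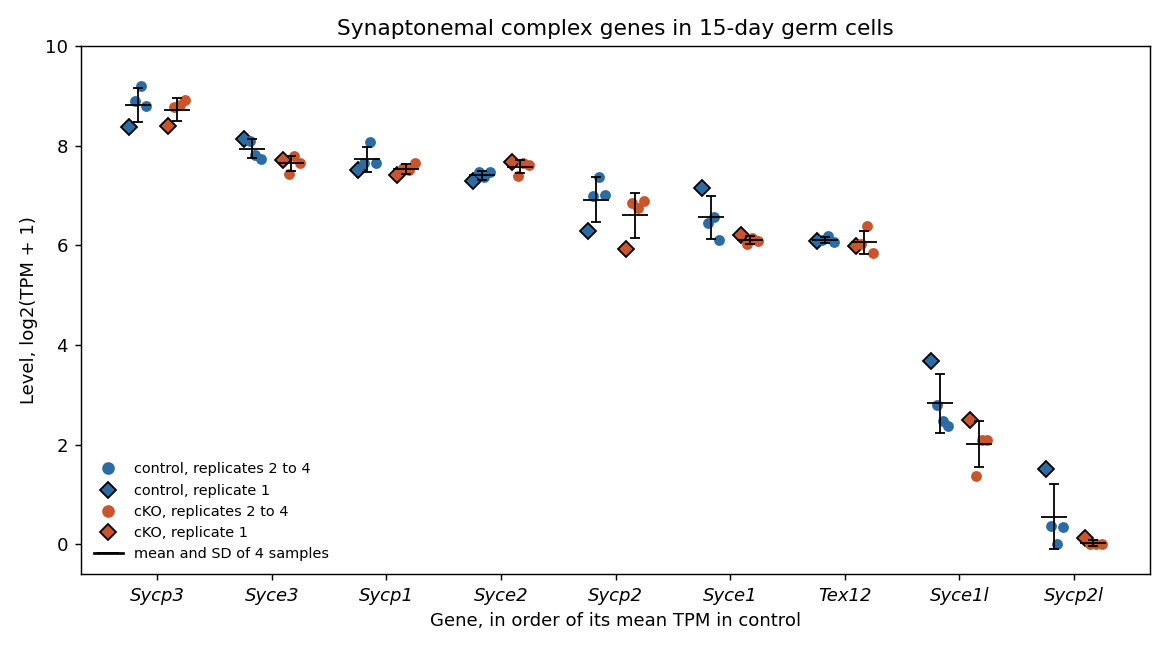
Levels of the 9 synaptonemal complex genes as log2(TPM + 1), with 1 point per sample, controls in blue and cKO in orange, diamonds for the samples numbered 1, and bars for the mean and SD of 4 samples. Every gene has overlapping genotypes, and the diamonds lie lowest for *Sycp1*, *Sycp2* and *Sycp3* and highest for *Syce1* and *Syce1l* in both genotypes. Those of *Sycp2l* are highest too, but rest on 12 counts in control 1 and 2 counts in cKO 1.

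The most abundant transcript was that of *Sycp3*, followed in the means of both genotypes by the other 6 genes of the spermatocyte complex and then by the 2 paralogs. In controls the order by mean TPM was *Sycp3*, *Syce3*, *Sycp1*, *Syce2*, *Sycp2*, *Syce1*, *Tex12*, *Syce1l* and *Sycp2l*. The order in cKO samples differed in 1 exchange, in which *Syce2* stood before *Sycp1*. *Syce3* had 240 to 364 counts per sample and *Tex12* had 306 to 468, so the place of *Syce3* above *Tex12* rested on the scaling for length. *Sycp3* was above *Syce3* in 8 of 8 samples with no overlap of their ranges, and *Tex12* was above *Syce1l* in the same way. Neighbours between them were not separated: *Syce3* was above *Sycp1* in 5 of 8 samples, *Sycp1* above *Syce2* in 6, *Syce2* above *Sycp2* in 7, *Sycp2* above *Syce1* in 6 and *Syce1* above *Tex12* in 6, and each pair had overlapping ranges. The 9 genes together made up 1241 to 1580 TPM in controls and 1117 to 1323 TPM in cKO samples.

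The lateral element genes had overlapping levels in control and cKO samples, and neither was called. *Sycp3* (chr10:88295431-88309099, plus strand, GRCm39), which encodes the filament-forming protein of the axis, was at 328.4, 472.8, 586.4 and 445.2 TPM in controls 1 to 4. In cKO 1 to 4 it was at 336.3, 434.7, 446.9 and 484.0 TPM. The lowest sample of each genotype was the one numbered 1, and the highest of the 8 was control 3. The means were 458.2 ± 106 and 425.5 ± 63.0 TPM (SD, n = 4 each), and the log2 fold change was -0.09 ± 0.17 SE with a 95% interval of -0.47 to 0.28. The edgeR adjusted p was 0.91. Without control 3 the value was 0.06, so its direction rested on that mouse.

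*Sycp2* (chr2:177987076-178049478, minus strand) encodes the partner that recruits SYCP3 to the axis. It was at 77.2, 125.6, 164.9 and 127.0 TPM in controls and at 60.1, 114.0, 106.2 and 117.4 TPM in cKO samples. The sample numbered 1 was again far below the other 3 in both genotypes, and the remaining cKO samples lay below the remaining controls. The log2 fold change was -0.33 ± 0.28 SE (95% interval -0.98 to 0.33, edgeR adjusted p = 0.75). It was -0.14 without control 3, -0.16 without cKO 1 and -0.31 without both samples numbered 1 (edgeR adjusted p = 0.51). With the replicate number as a block it was -0.32 ± 0.09 SE (edgeR adjusted p = 0.08), in a fit that called 7.25% of all genes. With both steps it was -0.29 (edgeR adjusted p = 0.26). The *Sycp3* to *Sycp2* ratio of TPM was 3.51 to 4.25 in controls and 3.81 to 5.59 in cKO samples, with cKO 1 the highest, and the genotypes overlapped.

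*Sycp1* (chr3:102725709-102843455, minus strand), which encodes the transverse filament, was at 181.4, 200.1, 269.6 and 200.2 TPM in controls and at 169.9, 186.0, 182.3 and 200.9 TPM in cKO samples. Control 3 was the highest and cKO 1 the lowest of the 8. The mean was 212.8 ± 38.9 TPM in controls and 184.8 ± 12.8 TPM in cKO samples (SD, n = 4 each). The log2 fold change was -0.18 ± 0.12 SE with a 95% interval of -0.44 to 0.07 (edgeR adjusted p = 0.67), and it was -0.04 without control 3.

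Among the central element genes, *Syce1* and *Syce3* had lower means in cKO samples and *Syce2* a higher mean, while the means of *Tex12* were close. *Syce1* (chr7:140356873-140367820, minus strand) encodes a protein that joins the ends of the transverse filaments to the central element. It was at 140.7, 86.2, 93.4 and 68.2 TPM in controls and at 72.8, 63.8, 69.5 and 66.9 TPM in cKO samples. Control 1 was far above the rest, control 4 lay inside the cKO range, and the 4 cKO samples spanned less than 10 TPM. The means were 97.1 ± 30.9 and 68.3 ± 3.86 TPM (SD, n = 4 each), with a log2 fold change of -0.50 ± 0.21 SE and a 95% interval of -0.97 to -0.03. The edgeR p was 0.041 before adjustment and 0.54 after it. A two-sided exact permutation test on log2(TPM + 1) gave p = 0.086, where 4 against 4 samples cannot go below 0.029. Without control 1 the value was -0.25 (edgeR adjusted p = 0.70), and without both samples numbered 1 it was -0.30 (edgeR adjusted p = 0.12). With those samples left out and the replicate number as a block, *Syce1* was called at -0.28 (edgeR adjusted p = 0.025), in a fit that called 5.94% of all genes.

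*Syce3* (chr15:89274366-89299966, minus strand), a central element protein that binds SYCE1, was at 278.0, 272.7, 223.9 and 211.6 TPM in controls and at 208.5, 170.7, 220.7 and 199.0 TPM in cKO samples. Only cKO 3 reached the control range, and cKO 2 was the lowest sample. The means were 246.5 ± 33.7 and 199.7 ± 21.3 TPM (SD, n = 4 each), and the log2 fold change was -0.29 ± 0.13 SE with a 95% interval of -0.56 to -0.01. The edgeR p was 0.041 before and 0.54 after adjustment, and the exact permutation test gave p = 0.057. The value was -0.29 also without both samples numbered 1 (edgeR adjusted p = 0.29).

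*Syce2* (chr8:85598740-85614853, plus strand), which encodes a subunit of the fibres of the central element, was at 154.9, 177.2, 164.6 and 177.0 TPM in controls and at 202.5, 167.3, 199.2 and 194.7 TPM in cKO samples. It was the only member with a higher fitted level in cKO samples, with cKO 1, 3 and 4 above every control and cKO 2 inside the control range. The means were 168.4 ± 10.8 and 190.9 ± 16.1 TPM (SD, n = 4 each). The log2 fold change was 0.21 ± 0.08 SE with a 95% interval of 0.04 to 0.38, with an edgeR p of 0.019 before and 0.46 after adjustment. The exact permutation test gave p = 0.086. Without both samples numbered 1 the log2 fold change was 0.15 (edgeR adjusted p = 0.36).

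*Tex12* (chr9:50467058-50472631, minus strand) encodes the partner of SYCE2 in those fibres. It was at 66.9, 67.6, 72.2 and 65.8 TPM in controls and at 62.5, 64.0, 82.6 and 56.6 TPM in cKO samples. The cKO samples enclosed the narrow control range, with cKO 3 above it and the other 3 below it. The log2 fold change was -0.01 ± 0.13 SE with a 95% interval of -0.29 to 0.27 (edgeR adjusted p = 0.99). The *Syce2* to *Tex12* ratio of TPM was between 2.28 and 2.69 in controls and between 2.41 and 3.44 in cKO samples. The highest ratios were those of cKO 4 and cKO 1, at 3.44 and 3.24.

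The paralogs were far less abundant. *Syce1l* (chr8:114369845-114382165, plus strand) was at 11.8, 5.97, 4.55 and 4.19 TPM in controls and at 4.60, 1.59, 3.25 and 3.27 TPM in cKO samples, from 16 to 58 expected counts in controls and 7 to 24 in cKO samples. Control 1 was the highest of the 8, and cKO 1 lay inside the control range. The log2 fold change was -1.07 ± 0.47 SE with a 95% interval of -2.09 to -0.04, and it was -0.60 without control 1. The edgeR p was 0.042 before and 0.54 after adjustment, and the exact permutation test gave p = 0.086. *Sycp2l* (chr13:41267783-41327827, plus strand) passed the filter through control 1 alone, with 12 counts and 1.84 TPM there. It had 1, 0 and 1 counts in the other controls and 2, 0, 0 and 0 counts in cKO samples, at or below a floor of 3 counts, and no fold is given. The counting assigns reads to similar transcripts by estimation, so reads could be split between each paralog and its partner.

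No member was called, with 0 of 9 genes past an adjusted p of 0.05 in edgeR, where 0.0396% of the 20187 genes tested were called, and 0 of 9 in DESeq2, where 1.5% were called. DESeq2 gave no adjusted p for *Sycp2l*. At an unadjusted p under 0.05, 3 members were lower in cKO samples (*Syce1*, *Syce3* and *Syce1l*) and 1 was higher (*Syce2*), against 6.28% of all genes lower and 2.62% higher. In no member did TPM separate the genotypes without overlap, whereas among all genes the 4 cKO values lay entirely below the 4 control values in 3.39% and entirely above them in 1.61%. The median log2 fold change was -0.29 over the 9 members, -0.24 without *Sycp2l* and -0.18 over the 7 genes of the spermatocyte complex, beside 0.01 over all genes tested. The median over the 9 members was between -0.33 and -0.14 when 1 sample was left out, being -0.14 without control 3 and -0.16 without cKO 1. Without both samples numbered 1, edgeR called 4.24% and DESeq2 4.45% of all genes, and 0 of 9 members. That set of samples was chosen after the data were seen. With the replicate number as a block over all 8 samples, edgeR called 7.25% of all genes and 0 of 9 members, and with both steps it called *Syce1* alone among the members.

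The contrast between samples was larger for some members than the contrast between genotypes. In both genotypes the sample numbered 1 had less *Sycp1*, *Sycp2* and *Sycp3* than each of the other 3, and more *Syce1* and *Syce1l*. *Sycp2l* was highest there too, but it passed the filter through control 1 alone and had 2 counts in cKO 1. *Syce3* was highest in control 1 and inside the range of the others in cKO 1, *Syce2* was lowest in control 1 and highest in cKO 1, and *Tex12* was inside the range in both. The ratio of *Syce1* to *Sycp2* in TPM showed this within each library. It was 1.82 in control 1 and 0.537 to 0.687 in the other controls, and 1.21 in cKO 1 and 0.559 to 0.655 in the other cKO samples. In cKO 1 *Syce1* was slightly above the others (72.8 against 63.8 to 69.5 TPM), while *Sycp2* was far below them (60.1 against 106.2 to 117.4 TPM). The summed TPM of the lateral element genes was 405.6 in control 1 against 572.2 to 751.3 in the other controls, and 396.4 in cKO 1 against 548.7 to 601.4. The sum of the 4 central element genes was 640.4 in control 1 against 522.6 to 603.8, and 546.3 in cKO 1 against 465.7 to 571.9.

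**Figure D2:**
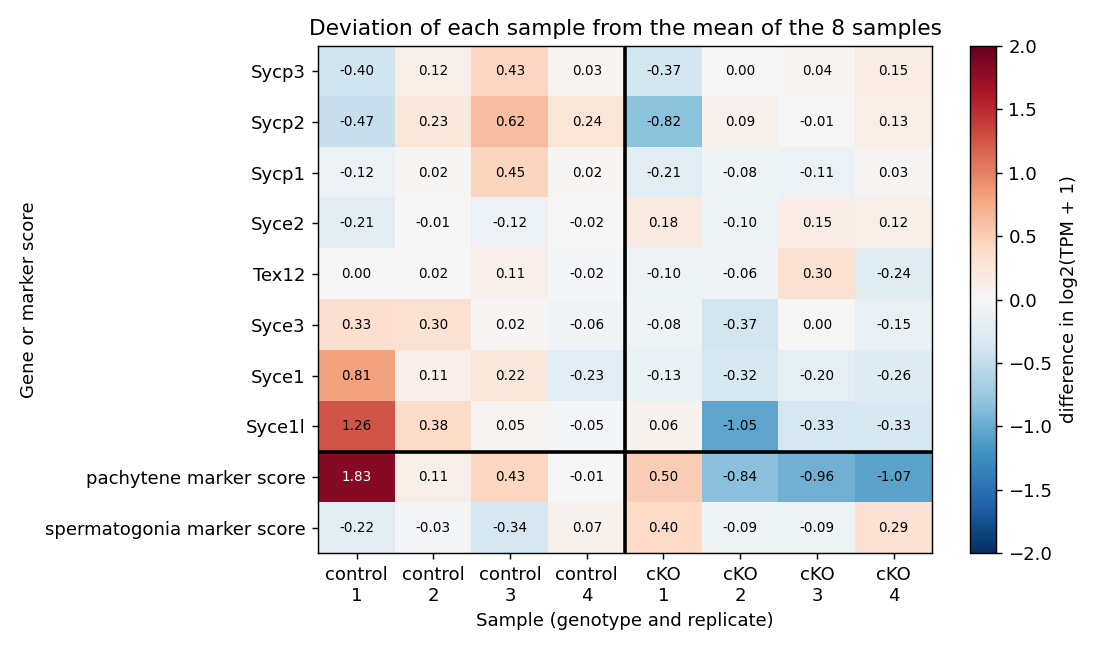
Difference of each sample from the mean of the 8 samples in log2(TPM + 1), for 8 members (rows above the line) and for the mean level of pachytene and spermatogonial markers (rows below it), with controls left and cKO right of the vertical line. Red is above the mean and blue below it. *Sycp2* is 0.47 below the mean in control 1 and 0.82 below it in cKO 1, while the pachytene markers are above it in both, by 1.83 and 0.50.

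Across the 8 samples, which share library depth and the cell mixture of each mouse with every gene measured in them, *Sycp2* and *Sycp3* had Pearson's r of 0.94 on log2(TPM + 1). *Sycp1* had r = 0.84 with *Sycp3* and 0.82 with *Sycp2*. In the 6 samples not numbered 1 these 3 values were 0.89, 0.96 and 0.97, and on deviations from the genotype means of all 8 samples they were 0.96, 0.88 and 0.79. *Syce1l* had r = 0.90 with *Syce1* and 0.91 with *Syce3* over 8 samples, and 0.75 and 0.93 over 6. *Syce1* and *Syce3* had r = 0.80 over 8 samples and 0.73 over 6. On deviations from the genotype means, *Syce1l* had r = 0.82 with *Syce1* and 0.83 with *Syce3*, and *Syce1* had r = 0.64 with *Syce3*. With *Sycp1*, *Sycp2* and *Sycp3*, *Syce1* had r = 0.14, -0.19 and -0.31 over 8 samples. Over 6 samples these values were 0.78, 0.80 and 0.81, so the distance of *Syce1* from those genes rested on the samples numbered 1. *Syce2* and *Tex12*, whose proteins assemble together, had r = -0.05 over 8 samples and 0.10 over 6. These values are descriptions of few samples.

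The pachytene markers moved with some of these genes. Over 8 samples the mean level of the 10 markers had r = 0.89 with *Syce1*, 0.88 with *Syce1l* and 0.69 with *Syce3*, and -0.39 with *Sycp2* and -0.50 with *Sycp3*. On deviations from the genotype means the same values were 0.80, 0.79, 0.44, -0.89 and -0.82. Over the 6 samples not numbered 1 the value with *Syce1* was 0.82, while those with *Sycp2* and *Sycp3* were 0.85 and 0.59, so the sign for the lateral element genes rested on the 2 samples numbered 1. All 10 pachytene markers had lower fitted values in cKO samples, with a median log2 fold change of -1.45 and 0 called by edgeR (2 at an unadjusted p under 0.05), and DESeq2 called *Piwil1* (-2.06, adjusted p = 0.035). Without both samples numbered 1, edgeR called *Pgk2* (-3.36, adjusted p = 2.3e-05) and *Spag6l* (-2.37, adjusted p = 0.0003), and DESeq2 called these and *Piwil1*, *Hspa2*, *Ldhc* and *Adam2*. Their part in the values of the members was not tested. Spermatogonial markers had fitted values that were higher in 10 of 10 genes, with a median of 0.20 and 0 called by edgeR (1 at an unadjusted p under 0.05). Their mean level had r = 0.77 with *Syce2* over 8 samples and 0.62 over 6.

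**Figure D3:**
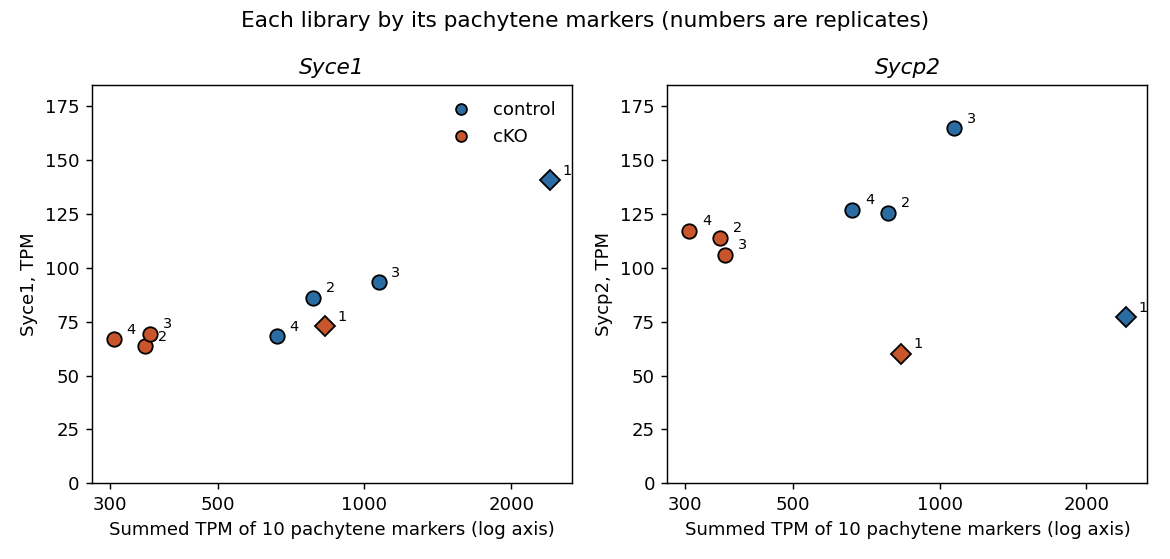
TPM of *Syce1* (left) and *Sycp2* (right) in each sample against the summed TPM of 10 pachytene markers on a log axis, with controls in blue, cKO in orange, diamonds for the samples numbered 1 and numbers for replicates. *Syce1* is highest where the markers are highest, in control 1 (140.7 TPM at 2406 TPM of markers), while the 2 diamonds hold the lowest *Sycp2* values, 77.2 and 60.1 TPM.

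The other genes of the axis, of telomere attachment and of recombination gave the surroundings of the members. Among 10 other synaptonemal complex and axis genes none was called by edgeR, 3 had lower and 7 higher fitted values, and the median was 0.05. The lowest value was that of *Stag3*, a meiotic cohesin subunit, at -0.16 ± 0.07 SE (adjusted p = 0.56), with no overlap of the genotypes (137.7 to 155.4 against 169.4 to 182.6 TPM). The highest was that of *Rad21l*, another meiotic cohesin subunit, at 0.27 ± 0.14 SE (adjusted p = 0.60). *Six6os1*, listed as 4930447C04Rik, encodes a central element protein that works with SYCE1 and was at 0.12 ± 0.30 SE (adjusted p = 0.94). Its control samples lay between 44.6 and 109.1 TPM and its cKO samples between 62.4 and 118.5 TPM.

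All 6 genes of telomere attachment and chromosome movement had lower fitted values, with a median of -0.21 and 0 called by edgeR. *Kash5*, which links telomeres to dynein, had the largest difference at -0.41 ± 0.12 SE (adjusted p = 0.35), with 26.1 to 31.8 TPM in cKO samples and 32.9 to 45.0 TPM in controls. *Sun1*, its partner in the inner nuclear membrane, was at -0.01 ± 0.07 SE. Of 18 recombination genes, 10 had lower and 8 higher fitted values, the median was -0.08 and none was called by edgeR. *Spo11*, the enzyme that makes meiotic double-strand breaks, had the lowest value at -0.54 ± 0.16 SE (adjusted p = 0.35), and *Rec114*, a partner in break formation, the highest at 0.35 ± 0.18 SE (adjusted p = 0.60). Without both samples numbered 1, a choice made after the data were seen under which edgeR called 4.24% of all genes, it called *Spo11* (-0.57, adjusted p = 0.016), *Msh4* (-0.44, adjusted p = 0.022), *Mlh3* (-0.40, adjusted p = 0.0083) and *Dmc1* (0.25, adjusted p = 0.045), and no member of the synaptonemal complex. Over these 34 genes, the cKO values lay entirely below the control values in 3 (*Stag3*, *Kash5* and *Ccnb1ip1*) and entirely above them in 2 (*Iho1* and *Rec114*), against 3.39% and 1.61% of all genes, and *Iho1* and *Ccnb1ip1* are named here after their values were seen.

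**Figure D4:**
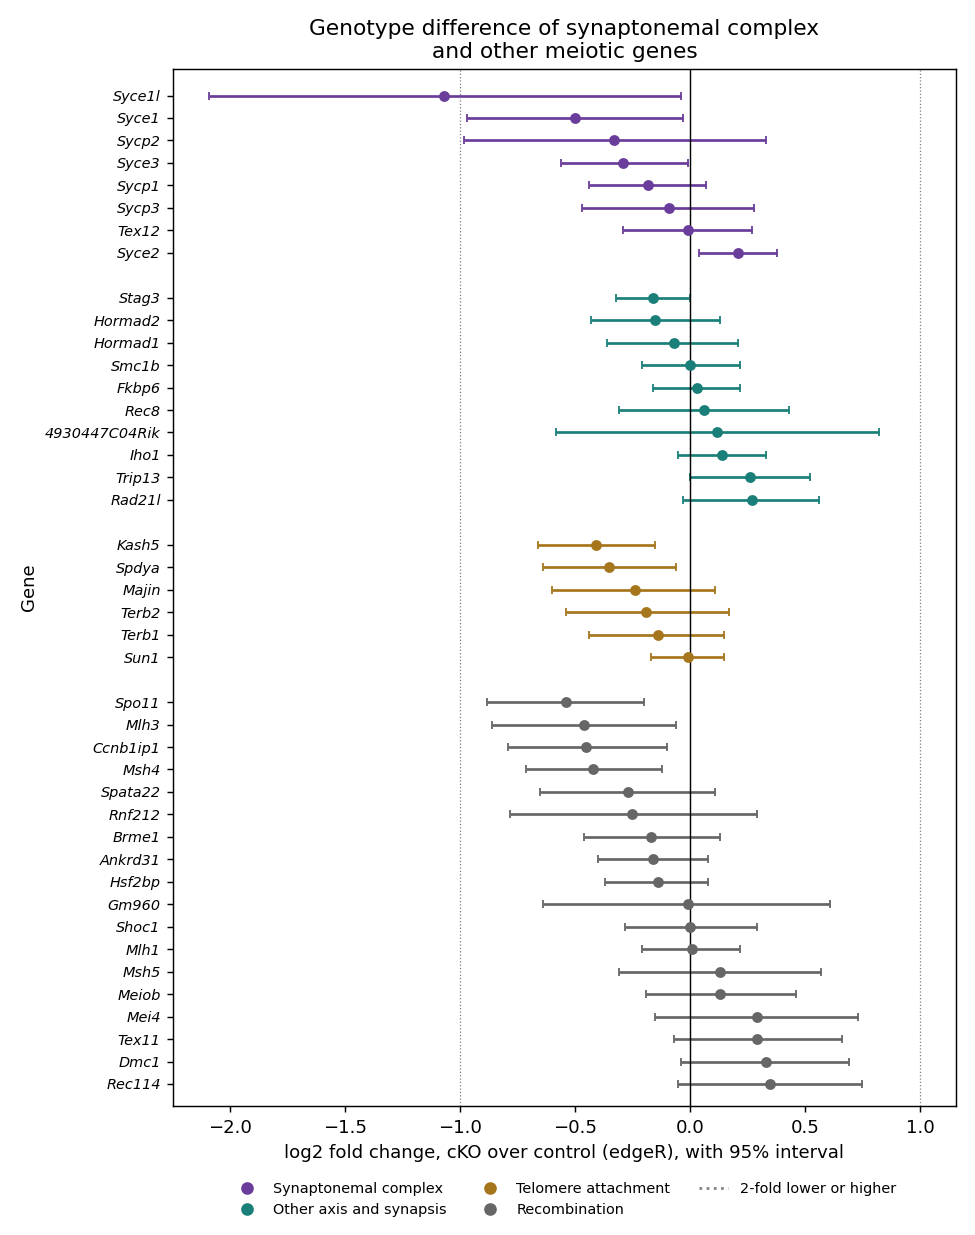
Log2 fold change of cKO over control from edgeR with its 95% interval for 8 members (top, violet) and for other axis and synapsis genes (green), telomere attachment genes (ochre) and recombination genes (grey), sorted within each group. The members run from -1.07 for *Syce1l* to 0.21 for *Syce2*, and dotted lines mark a doubling or halving.

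The mean log2 CPM of the 7 genes of the spermatocyte complex was 6.58, 6.64, 6.84 and 6.53 in controls 1 to 4 and 6.39, 6.46, 6.61 and 6.50 in cKO 1 to 4. Among 10385 other genes with a mean of at least 10 CPM, the 5 with a pattern most like it over the 8 samples were *Miga1* (r = 0.977), *Eif1* (r = 0.959), *Rad9b* (r = 0.952), *Gpat2* (r = 0.944) and *Ahcyl1* (r = 0.943). *Rad9b* encodes a subunit of a checkpoint clamp and *Eif1* a translation initiation factor. *Rad9b* ran from 36.8 to 58.5 TPM over the 8 samples and had a log2 fold change of -0.32 (edgeR adjusted p = 0.41).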

How the data were processed

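Germ cells of 8 mice, 4 per genotype, gave 1 library each. The authors prepared non-stranded polyA libraries, aligned paired reads to mm39 with STAR 2.7.9a and quantified Ensembl 105 genes with RSEM 1.3.3 (versions per the labels). They deposited RSEM expected counts without normalization and TPM values scaled within each library. Expected counts were rounded, since 6.4% were not whole. Genes with at least 1 TPM in at least 1 sample were tested with edgeR 4.0.16 (TMM factors, genotype as the only term, robust quasi-likelihood F-test). P-values were adjusted across the 20187 genes by the Benjamini-Hochberg method, and a gene was called below 0.05. DESeq2 1.42.0 and limma 3.58.1 were alternatives. For single genes the means of log2(TPM + 1) were compared in an exact permutation test, two-sided, with scipy 1.17.1. The scripts were tested on simulated data.

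The members and lists were chosen with earlier results of these data known. Named genes were *Mgat2*, the 9 members, the genes of 3 pathway lists past the threshold with the largest rise and fall of each, the cell type markers and the 5 genes most like the members. *Six6os1* was added to these after its values were seen. Preleptotene markers and peritubular, vascular and immune markers were listed too (5 and 8 genes, medians 0.06 and 0.12), as were 8 spermatid genes (4 tested, median -0.79), with none called by edgeR over 8 samples. DESeq2 called *Acr* (-1.91, adjusted p = 0.033). Without both samples numbered 1, edgeR called *Acr* (-2.18, adjusted p = 0.00017) and *Myh11* (0.27, adjusted p = 0.011), and DESeq2 called both and *Acta2* (0.25, adjusted p = 0.043). *Mzip2* is the same gene as *Shoc1*, and *Spo16* was not matched. Gene positions were those of GENCODE mouse release 39. Samples are separate mice. The floor of 3 counts (0.189 to 0.238 CPM) covers counting error only.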

Additional observations from a re-analysis of the deposited data

Results flagged for a closer look

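Of 42 groups of 4 samples examined, 9 held a sample far from the other 3 by Dixon's test. Chance gives about 1 in 20 for independent groups, but these groups share the same 8 libraries, so that rate cannot be set against the 9. For *Sycp2l* these were control 1 (1.84 TPM) and cKO 1 (0.09 TPM), both from few counts. The *Syce1* to *Sycp2* ratio was far above the others in control 1 (1.82) and in cKO 1 (1.21). Among the marker sums, cKO 1 was high for pachytene markers (830.95 TPM) and low for Sertoli cell markers (6008.6 TPM). Control 1 was high for spermatid genes (71.86 TPM) and low for peritubular, vascular and immune markers (308.18 TPM). In cKO 3 the preleptotene markers were high (440.81 TPM). Of the 9 flags, 8 fell on the samples numbered 1, but that count leans on what was examined. *Sycp2l* passed the filter through control 1 alone. The *Syce1* to *Sycp2* ratio was the only ratio put to the test, and it pairs a gene highest with a gene lowest in those samples of each genotype.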

How the results depend on the processing

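With all 8 samples or with 1 left out, no member was called under any alternative, the lowest adjusted p being 0.064 (*Syce1*, edgeR with a replicate block). Of 188 combinations of member and setting, 182 kept the direction and side of the threshold. *Sycp3* changed sign without control 3 (0.06, range -0.21 to 0.06 when 1 sample was left out), and *Tex12* with upper-quartile factors (0.01), without control 3 (0.02), without cKO 2 (0.01) and without cKO 4 (0.07, range -0.14 to 0.07). *Mgat2* was called by DESeq2 (-1.06). The count of all genes called, 8 in edgeR, was 302 in DESeq2, 18 with upper-quartile factors, 17 with library totals, 35 without a filter, and 0 with limma-voom, filterByExpr and limma-trend at both pseudocounts (1 and 0.1). It ran from 0 to 32 when 1 sample was left out. Without both samples numbered 1, a choice made after seeing the data, it was 855 in edgeR and 899 in DESeq2, and 4 and 3 recombination genes were called. The causes were not tested.

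Sample titles number mice 1 to 4 in both genotypes, but deviations of same-numbered samples had r of 0.475, 0.111, 0.029 and 0.16 over all genes tested, and control 2 was more like cKO 4 (0.137) than cKO 2, so the numbers were not taken as pairs. Over 10392 genes with a mean of at least 10 CPM the values were 0.8, 0.524, 0.159 and 0.474, so their size rests on the set of genes used. There too control 2 was more like cKO 4 (0.534) than cKO 2, and control 3 more like cKO 2 (0.201) than cKO 3. Of the same-numbered samples, only those numbered 1 were each most like the other in both sets of genes. With the replicate block edgeR called 1464 genes, 0 members, 2 telomere genes and 5 recombination genes. With the block and without both samples numbered 1, it called 1199 genes, 1 member (*Syce1*, -0.28, adjusted p = 0.025), 1 telomere gene and 5 recombination genes. *Sycp2l* rests on at most 12 counts per sample, which cannot show a difference.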
